A study of Mus musculus with 6 samples.

Results

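The skin fibroblast markers Dpp4, Lrig1, Pdpn, Dlk1, Ly6a, Cd34, Mgp, Pi16, Thy1 and Vim were followed in cultured dermal fibroblasts in which β-catenin had been stabilized. They were taken by symbol from a table of 41126 genes. The 10 comprise 3 papillary markers (Dpp4, Lrig1, Pdpn), 5 reticular and hypodermal markers (Dlk1, Ly6a, Cd34, Mgp, Pi16) and 2 general fibroblast markers (Thy1, Vim). RNA-seq libraries were made from 3 Control and 3 GOF (gain of function) cultures of postnatal day 4 mice on a mixed CD1, C57Bl6 background. The study prepared the cells from ventral trunk skin, grew those of each mouse separately and infected them in culture. By their source and genotype labels, Control cultures received an adenovirus carrying GFP (AdGFP) and GOF cultures one carrying Cre (AdCre), which deletes exon 3 of 1 Ctnnb1 allele (Ctnnb1{delta}ex3/+) and leaves a protein that escapes degradation. The labels call the Control genotype +/+, whereas the study's methods describe Control cells as carrying the same uncut allele, and the virus and the allele cannot be told apart in this design. The treatment label, however, is the same for all 6 samples, Control included, and names AdCre alone. It gives a multiplicity of infection (MOI) of 366 to 500 over 6 h without serum, and does not state the time from infection to harvest. According to the study, RNA was sequenced from cells taken days after the infection. The study's methods give AdGFP at an MOI of 366. By the treatment label alone the Control cultures would also have had AdCre, and which virus they received rests on their other labels and the methods. By the numbers that open the sample titles, read here as those of the mice, the 6 cultures came from 4 mice, and 2 of these gave a culture to each group: Control replicate 0 and GOF replicate 2 shared one mouse, and Control replicate 2 and GOF replicate 0 another.

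Dermal fibroblasts form in layers. Papillary fibroblasts lie beneath the epidermis and take part in hair follicle formation, whereas reticular and hypodermal fibroblasts lie deeper, lay down fibrillar matrix and include the precursors of dermal adipocytes. Wnt/β-catenin signaling, in which β-catenin joins TCF/LEF factors on DNA, is active in the upper dermis and is known to influence the balance of these lineages. The markers are not exclusive to one layer, since Dpp4 and Pi16 are also used together to mark fibroblasts of the fascia and vessel walls, Pdpn is made by lymphatic endothelium, Cd34 by blood endothelium and Thy1 by T cells.

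The upstream sequences of the genes with the greatest change in each direction, Dpp4 and Pi16, are shown because the contrast is one of β-catenin activity. Each run is the 250 bases before the RefSeq start site on GRCm38.p6, 5′ to 3′ on the gene's strand. Dpp4 is at chr2:62412232-62412481, minus strand, and Pi16 at chr17:29318632-29318881, plus strand, inside the gene body of GENCODE, which places the start of Pi16 upstream at 29317680. Capitals mark the letters CTTTGAA or CTTTGAT and likewise CTTTGTA or CTTTGTT, searched on both strands, which are bound by TCF/LEF factors and differ among themselves only at the end.
Dpp4: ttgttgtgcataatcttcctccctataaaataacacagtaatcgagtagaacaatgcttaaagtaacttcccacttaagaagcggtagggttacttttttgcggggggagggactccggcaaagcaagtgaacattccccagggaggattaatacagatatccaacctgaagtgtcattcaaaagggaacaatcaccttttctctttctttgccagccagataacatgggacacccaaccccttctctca
Pi16: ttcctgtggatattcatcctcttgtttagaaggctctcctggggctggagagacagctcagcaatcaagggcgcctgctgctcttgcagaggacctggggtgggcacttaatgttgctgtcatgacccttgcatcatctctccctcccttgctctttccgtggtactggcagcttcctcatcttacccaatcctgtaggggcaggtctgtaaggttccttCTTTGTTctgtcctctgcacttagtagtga
No such letters stand in this window of Dpp4, and CTTTGTT begins 30 bases before the start site of Pi16. RefSeq held an upstream sequence for 7 of the 10 markers, not for Ly6a, Mgp and Thy1. Pdpn was the other marker with a match, on the strand opposite to the gene, from 116 bases before its start. Of all 32851 upstream windows of this length, 14.8% held at least 1 of the 4 motifs. A match describes letters and not binding.

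Each library held between 35980831 and 42834467 fragments. Levels are given as FPKM, fragments scaled to transcript length and library depth, which the authors computed with Cuffdiff and which can be compared between genes. Changes are log2 fold changes of GOF over Control from edgeR's quasi-likelihood test on the fragments, with its standard error (SE) and the Benjamini-Hochberg adjusted p over all 15462 genes that passed a filter on low counts. A gene was called when its adjusted p was under 0.05 and its fold change over 2. Axin2, a direct β-catenin target, was at 0.144, 0.136 and 0.177 FPKM in Control replicates 0, 1 and 2 and at 19.2, 14.4 and 18.7 FPKM in the GOF replicates. Markers that define keratinocytes (Krt5, Krt14), adipocytes (Adipoq, Plin1) and T cells (Cd3e, Cd4) stayed under 0.1 FPKM in every library, whereas the fibroblast genes Col1a1, Dcn and Pdgfra were at 15.2 FPKM or more in all of them. Some other cell type markers did move. The keratinocyte list summed to 2.10 to 2.51 CPM (fragments scaled to library depth) in Control and 32.4 to 80.4 CPM in GOF libraries. Its rise was almost wholly Dsp, which was called higher and was at 30.9 to 79.3 CPM in GOF libraries. The 1 other gene of this list that could be tested, Krt10, was not called. Krt10 overlapped between groups, at 0.89 to 1.17 CPM in Control and 0.79 to 1.26 CPM in GOF libraries. The skeletal muscle list, almost wholly Acta1, was at 45.5 CPM or less in Control and at 211 to 255 CPM in GOF libraries. The leukocyte list, with Csf1r called higher, was at 21.1 to 34.5 and 24.1 to 53.0 CPM, and that of melanocytes and Schwann cells, with Mlana called lower, at 6.63 to 15.0 and 3.52 to 12.1 CPM. Of all tested genes, 12.3% were called, 6.69% higher and 5.64% lower. Of the pericyte and smooth muscle list, 6 genes were tested and none was called. That list summed to 117 to 193 CPM in Control and 151 to 306 CPM in GOF libraries. The part of these lists in the values of the fibroblast markers was not tested. In bulk RNA, fewer cells of a type and less RNA per cell cannot be told apart.

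All 10 markers were in the tested set, Pi16 through the Control libraries alone. One marker, Dpp4, was called higher, where 6.69% of all tested genes were. Pi16 and Cd34 were called lower, where 5.64% of all tested genes were. Lrig1 and Vim passed the adjusted p but not the fold change, which makes 5 of 10 with an adjusted p under 0.05, where 21.2% of all tested genes were. By FPKM, all GOF libraries lay above all Control libraries for 3 of the 10 (Dpp4, Pdpn and Vim), as for 20.3% of all tested genes, and below them for 3 (Cd34, Mgp and Pi16), as for 19.2% of all tested genes. The median log2 fold change was 0.76 over the 3 papillary, -1.33 over the 5 reticular and hypodermal and 0.50 over the 2 general markers, and -0.02 over all tested genes. Summed over each class, the papillary markers took 203 to 221 CPM in Control and 326 to 541 in GOF libraries, and the reticular and hypodermal markers 436 to 684 and 206 to 382. Neither class overlapped between groups in its sum. Ly6a made up most of the second sum in every library but itself overlapped, at 333 to 604 CPM in Control and 196 to 366 CPM in GOF libraries. Mgp, which was not called, took 59.5 to 97.2 CPM in Control and 5.46 to 37.0 CPM in GOF libraries. Of the papillary sum, Dpp4 took 2.28 to 3.57 CPM in Control and 86.5 to 203 CPM in GOF libraries.

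**Figure D1:**
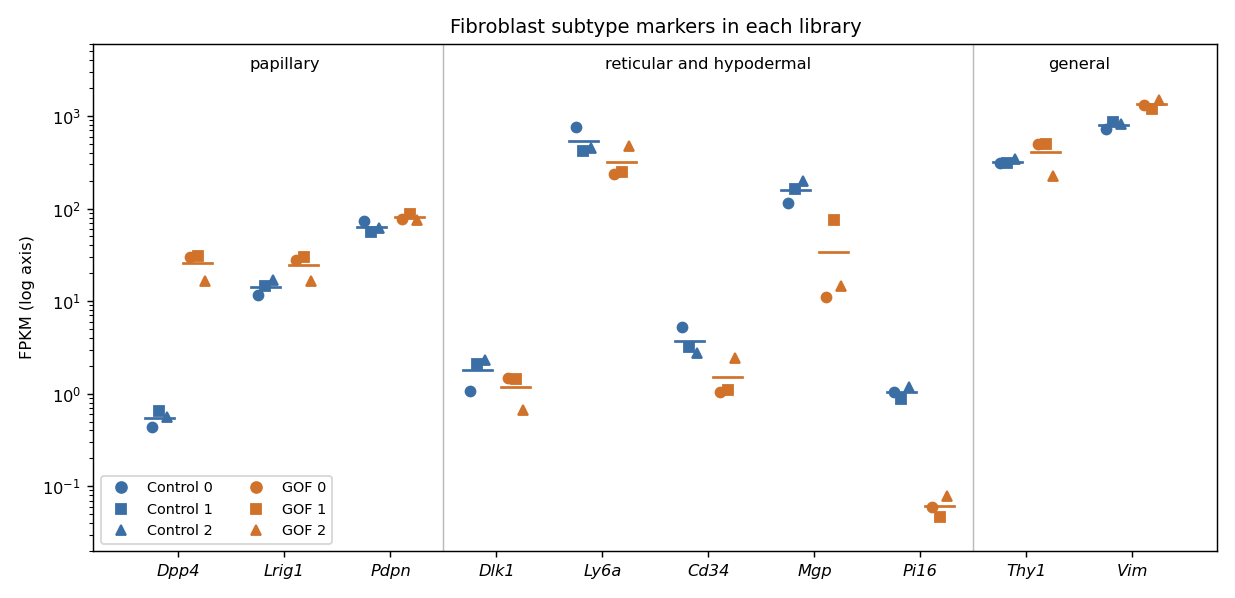
FPKM (log axis) of each marker in the 3 Control (blue) and 3 GOF (orange) libraries, with a symbol for each replicate (circle 0, square 1, triangle 2) and the group mean as a line. Dpp4 lies between 0.437 and 0.644 in Control and between 16.3 and 30.8 in GOF, and Pi16 between 0.883 and 1.19 and between 0.0468 and 0.0785.

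Dpp4, also called CD26, is a cell-surface serine protease that clips dipeptides from chemokines and hormones, and lies on chromosome 2 from 62330073 to 62412231. Its FPKM was 0.437, 0.644 and 0.560 in Control replicates 0, 1 and 2, and 30.3, 30.8 and 16.3 in GOF replicates 0, 1 and 2. Every GOF library stood far above every Control library, GOF replicate 2 being the lowest of its group, and the mean went from 0.547 ± 0.104 to 25.8 ± 8.24 FPKM (SD, n = 3 each). The log2 fold change was 5.77 (SE 0.39, adjusted p = 2.26e-04 from edgeR), a 54.7-fold rise that ranked 31st from the top of the 15462 genes. By level, Dpp4 moved from the 16.4th percentile of tested genes in Control to the 79.7th in GOF. Across 17 alternative fits its log2 fold change was 4.06 to 6.07, and it was called in each. On the opposite strand it overlaps the noncoding Gm13561, which had about 6 fragments in each GOF library, against 3497 to 7730 for Dpp4. Fap, which encodes a related serine protease and was named after its values were seen, was at 6.70, 9.65 and 7.03 FPKM in Control and 13.5, 13.1 and 11.5 FPKM in GOF libraries (log2 fold change 0.75, adjusted p = 0.0303 from edgeR), under the fold threshold.

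Lrig1, a transmembrane protein that restrains growth factor receptors of the ErbB family, lies on chromosome 6 from 94604529 to 94700158. It was at 11.7, 14.5 and 16.8 FPKM in Control and at 28.0, 29.6 and 16.5 FPKM in GOF libraries, so that GOF replicate 2 fell just within the Control range and the other two above it. Its log2 fold change of 0.76 (SE 0.22, adjusted p = 0.0468 from edgeR) was below the fold threshold. Without GOF replicate 2 it was 0.98 (adjusted p = 0.00754). Leaving out any one of the other 5 libraries gave an adjusted p over 0.05, and the 17 alternatives ranged from 0.00180 to 0.152. Slc25a26 overlaps Lrig1 on the opposite strand with 143 to 167 fragments, against 2160 to 5849 for Lrig1.

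Pdpn, a mucin-like surface glycoprotein, lies on chromosome 4 from 143267431 to 143299564. It was at 73.8, 55.5 and 61.9 FPKM in Control and at 77.3, 86.8 and 76.1 FPKM in GOF libraries. The GOF libraries lay just above all Control libraries in FPKM, but overlapped them in CPM (153 to 187 against 122 to 156). Its log2 fold change of 0.31 (SE 0.14, adjusted p = 0.160 from edgeR) did not pass, with a 95% interval of -0.01 to 0.63, although without both cultures of the mouse behind Control replicate 0 and GOF replicate 2, a choice made after the data were seen, it was 0.48 (adjusted p = 0.0198, against 0.0198 to 0.499 over the alternatives). Of 3 tested genes of lymphatic endothelium, where Pdpn is also made, Flt4 and Prox1 were called higher (6.69% of all tested genes were). Lyve1 was at 0.0649 to 0.119 FPKM in all libraries. These 3 genes summed to 1.64 to 2.27 CPM in Control and 7.03 to 14.2 CPM in GOF libraries. Their part in the value of Pdpn was not tested.

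Pi16, a secreted protein of the CAP family named as a peptidase inhibitor, lies on chromosome 17 from 29317680 to 29330593. It was at 1.04, 0.883 and 1.19 FPKM in Control and at 0.0596, 0.0468 and 0.0785 FPKM in GOF libraries, which correspond to 99, 107 and 126 fragments and to 5, 5 and 10 fragments. Every GOF library was far below every Control library, and the mean went from 1.03 ± 0.152 to 0.0616 ± 0.0159 FPKM (SD, n = 3 each). This gave a log2 fold change of -4.08 (SE 0.35, adjusted p = 4.52e-04 from edgeR), a 16.9-fold fall and the 31st from the bottom of the 15462 genes. Pi16 reached the filter on low counts in the Control libraries alone, so it entered this ranking through the group in which it was high. Its percentile among tested genes went from 23.4 to 1.08. In the fits on fragments it ran from -4.47 to -3.90 and was called in all of them, except that a minimum FPKM of 1 in 3 libraries left it untested. On log2(FPKM + 1), a scale that understates changes of low genes, it was -0.94 (adjusted p = 5.43e-04, against 2.00e-18 to 0.00456 over the alternatives). Dpp4 and Pi16, often used as a pair, thus moved in opposite directions. The antisense gene AC162182.1 overlaps Pi16 on the opposite strand. It has no values in the data used here, and its part in the fragments of Pi16 was not tested.

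Cd34, a sialomucin of fibroblasts, endothelium and blood progenitors, lies on chromosome 1 from 194938819 to 194961279. It was at 5.21, 3.22 and 2.78 FPKM in Control and at 1.04, 1.10 and 2.42 FPKM in GOF libraries. The groups did not overlap, although GOF replicate 2 came close to Control replicate 2. Cd34 had a log2 fold change of -1.33 (SE 0.38, adjusted p = 0.0437 from edgeR) and was called lower. The call was lost without Control replicate 0 (log2 fold change -1.01), Control replicate 1 (-1.43), GOF replicate 0 (-1.13) or GOF replicate 1 (-1.14), with adjusted p from 0.0799 to 0.147, against 0.00270 to 0.147 over all alternatives. Of 5 tested genes of blood endothelium, which also makes Cd34, Kdr was called higher (6.69% of all tested genes) and Tek lower (5.64%). Their list summed to 20.0 to 22.9 CPM in Control and 16.6 to 31.4 CPM in GOF libraries. Their part in the value of Cd34 was not tested. On the opposite strand Cd34 overlaps the antisense gene Gm16897, which had 4 to 11 fragments per library, against 123 to 536 for Cd34.

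Mgp, matrix Gla protein, is a vitamin K-dependent inhibitor of calcification and lies on chromosome 6 from 136872435 to 136875823. It was at 114, 163 and 200 FPKM in Control and at 11.1, 74.9 and 14.7 FPKM in GOF libraries. The groups did not overlap, and GOF replicate 1 stood apart from the other two, so that the highest GOF library had 6.78 times the CPM of the lowest. Its log2 fold change of -2.29 (SE 0.69, adjusted p = 0.0511 from edgeR) just missed the threshold. Without GOF replicate 1 it was -3.65 (adjusted p = 0.00174 from edgeR). With the animal as a block, which compares cultures of one mouse, it was -3.57 (adjusted p = 5.28e-04 from edgeR). That fit draws its change from 2 mice, with 1 residual degree of freedom, and takes nothing for it from GOF replicate 1. Over the 17 alternatives the adjusted p ran from 5.28e-04 to 0.120 and Mgp was called lower in 9.

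Dlk1, an imprinted surface protein with EGF repeats that holds back adipocyte differentiation, lies on chromosome 12 from 109452823 to 109463336. It was at 1.07, 2.10 and 2.29 FPKM in Control and at 1.48, 1.44 and 0.661 FPKM in GOF libraries, and the groups overlapped, with Control replicate 0 below GOF replicates 0 and 1. Dlk1 had 39 to 112 fragments per library, the fewest of the 10 markers in its best library. A log2 fold change of -0.82 (SE 0.35, adjusted p = 0.141 from edgeR) did not pass, with a 95% interval of -1.64 to -0.01. Without Control replicate 0 it was called lower (-1.09, adjusted p = 0.0377, against 0.0377 to 0.344 over the alternatives).

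Ly6a, a small lipid-anchored protein known as stem cell antigen, lies on chromosome 15 from 74994877 to 74998031. It was at 756, 416 and 446 FPKM in Control and at 237, 248 and 477 FPKM in GOF libraries. The groups overlapped, since GOF replicate 2 exceeded Control replicates 1 and 2. Its log2 fold change of -0.75 (SE 0.32, adjusted p = 0.138 from edgeR) did not pass, with a 95% interval of -1.50 to -0.01. Without GOF replicate 2 it was called lower (-1.11, adjusted p = 0.0387), and without Control replicate 0 it was -0.43. With the animal as a block, which rests on 2 mice and 1 residual degree of freedom, it was -0.78. The adjusted p was then 0.0105 (edgeR, 0.00231 to 0.349 over the alternatives), but the change was still under the fold threshold. Of the 50-base stretches of Ly6a transcripts, 19.0% also occur in those of Ly6c1, Ly6c2, Ly6i or I830127L07Rik. The values of Ly6a and of these genes may thus be uncertain, but the reads were longer than this. How the reads were assigned was not examined. For every other marker the share was 3.88% (Pi16) or less. Of 9 further Ly6 genes with deposited values, 3 were tested. Ly6c1 was called lower, from 237, 134 and 130 FPKM to 48.1, 37.8 and 86.3 FPKM (log2 fold change -1.56, adjusted p = 0.0203 from edgeR), as was Ly6c2 at a far lower level (log2 fold change -1.67; 7 to 13 fragments in GOF libraries, 1 of which reached the filter), while Ly6e was not called (0.16, adjusted p = 0.659).

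Vim, the intermediate filament protein of mesenchymal cells, lies on chromosome 2 from 13573927 to 13582826 and had the highest level of the 10 in both groups. It was at 719, 866 and 810 FPKM in Control and at 1307, 1204 and 1506 FPKM in GOF libraries, without overlap. GOF over Control gave a log2 fold change of 0.70 (SE 0.18, adjusted p = 0.0280 from edgeR), a 1.63-fold difference below the fold threshold. Its adjusted p exceeded 0.05 when Control replicate 1 or 2, or GOF replicate 0 or 2, was left out, and ranged from 1.78e-04 to 0.126 over the alternatives.

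Thy1, a lipid-anchored protein of the immunoglobulin family used as a general fibroblast marker, lies on chromosome 9 from 44043384 to 44048579. It was at 311, 308 and 344 FPKM in Control and at 495, 494 and 222 FPKM in GOF libraries. Control libraries lay close together, whereas GOF replicates 0 and 1 stood above and GOF replicate 2 below them. Its log2 fold change of 0.29 (SE 0.28, adjusted p = 0.491 from edgeR) did not pass, with a 95% interval of -0.35 to 0.94. Without GOF replicate 2 it was 0.58 (adjusted p = 0.0290, against 0.0108 to 0.910 over the alternatives), under the fold threshold.

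**Figure D2:**
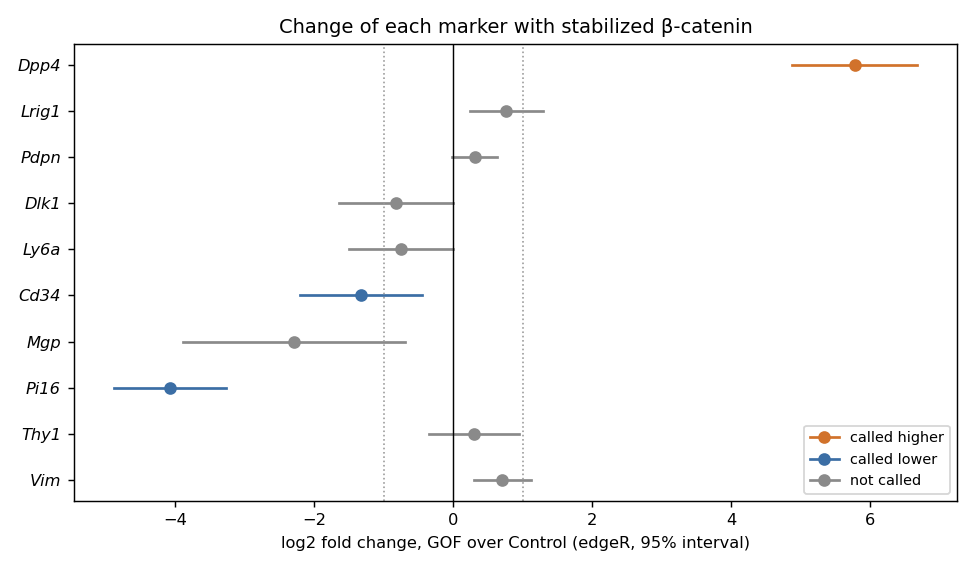
Log2 fold change of GOF over Control for each marker from edgeR with its 95% interval (points and bars). Dotted lines mark a fold change of 2 in either direction, and Dpp4 (5.77) and Pi16 (-4.08) are the markers whose whole interval lies beyond it.

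On FPKM, an exact permutation test gave a two-sided p of 0.1, the smallest that 3 against 3 libraries allow, for each of the 6 markers without overlap. It gave 0.2 for Lrig1, 0.3 for Dlk1 and Ly6a and 0.4 for Thy1. Ordered by mean level, the Control libraries ran Vim, Ly6a, Thy1, Mgp, Pdpn, Lrig1, Cd34, Dlk1, Pi16 and Dpp4, with overlapping values between Vim and Ly6a and between Dlk1 and Pi16. The GOF libraries ran Vim, Thy1, Ly6a, Pdpn, Mgp, Dpp4, Lrig1, Cd34, Dlk1 and Pi16. There Thy1 overlapped Ly6a, Mgp overlapped Dpp4, Dpp4 overlapped Lrig1 and Cd34 overlapped Dlk1. Dpp4, the lowest marker in Control, was thus not separable from Mgp or Lrig1 in GOF libraries.

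Cultures of one mouse often lay on the same side of their group means. Relative to their group means of log2 CPM, Control replicate 0 and GOF replicate 2 lay on the same side for 8 of the 10 markers, and Control replicate 2 and GOF replicate 0 also for 8 of 10, compared with 64.6% and 69.8% of all tested genes. Control replicate 0 and GOF replicate 2 had the highest Ly6a and Cd34 of their groups and the lowest Dpp4, Lrig1 and Dlk1. Axin2 did not show this order, with GOF replicate 1 as the lowest of its group. Within each mouse, Dpp4 had 37.9 and 52.2 times the CPM in the GOF culture, and Pi16 0.0855 and 0.0400 times. Mgp had 0.126 and 0.0562 times, Cd34 0.442 and 0.388 times, and Ly6a 0.605 and 0.561 times. For Cd34 and Ly6a both mice thus gave nearly the same ratio. Lrig1 (1.38 and 1.72) and Vim (2.06 and 1.62) were higher and Dlk1 (0.718 and 0.567) lower in the GOF culture of both mice. Thy1 went from 0.726 in the first mouse to 1.48 in the second, and Pdpn from 0.981 to 1.26. These are 2 mice, and no separate test was made on the listed ratios. The fit with the animal as a block draws its change from these 2 mice alone, with 1 residual degree of freedom. Leaving out both cultures of the first mouse, a choice made after the data were seen, left 1 marker called higher and 2 called lower, as before.

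**Figure D3:**
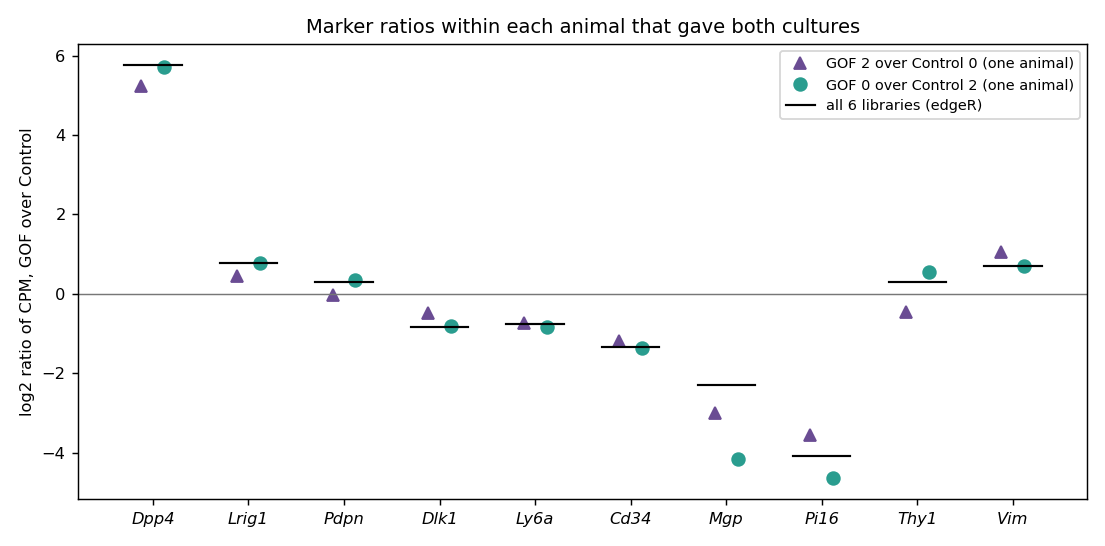
Log2 ratio of CPM, GOF over Control, in each of the 2 mice that gave a culture to both groups (triangles and circles), with the edgeR value over all 6 libraries as a line. Dpp4 lies above 5 and Pi16 below -3.5 in both mice, whereas the 2 mice fall on opposite sides of 0 for Thy1 and Pdpn.

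Further genes of the same fibroblast classes were counted from lists. Of 12 tested papillary genes, 6 were called higher (6.69% of all tested genes were) and 6 were not called, with a median log2 fold change of 1.40. Of the 6 called, Lef1, Wif1 and Prdm1 had at most 10 fragments in any Control library and reached the filter on low counts in all 3 libraries of the GOF group only, so that they could enter the test only by being high there. The 3 called genes that reached it in all 6 libraries were Axin2, Apcdd1 and Crabp1, and the count and median are a description of the genes that passed. Apart from Axin2, those with the smallest adjusted p were Apcdd1 (log2 fold change 4.12), a Wnt inhibitor of the cell membrane, Lef1 (2.76), a TCF/LEF factor, and Wif1 (4.52), a secreted Wnt inhibitor, with adjusted p of 1.70e-04 to 0.00212 from edgeR. These 4 are also known as Wnt target or feedback genes. The other called members, named after their values were seen, were Prdm1, the factor Blimp1 of papillary precursors, and Crabp1, a retinoic acid binding protein. Prdm1 was at 0.0324, 0.0245 and 0.0847 FPKM in Control and at 0.202, 0.275 and 0.152 FPKM in GOF libraries. Crabp1 was at 40.9, 21.2 and 46.7 FPKM in Control and at 200.0, 232 and 52.7 FPKM in GOF libraries, with GOF replicate 2 again nearest to Control. With a minimum FPKM of 1 in 3 libraries, 3 of 8 tested papillary genes were called higher, where 639 of all 12228 tested genes were. With log2(FPKM + 1), 3 of 12 were called higher, where 481 of all 15462 were. Without GOF replicate 2, 1 of 12 papillary genes was called lower, where 825 of all 15853 tested genes were.

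Of 13 tested reticular and hypodermal genes, 2 were called higher and 4 lower, against 6.69% and 5.64% of all tested genes, with a median log2 fold change of -0.25. Pparg, the master regulator of adipocyte formation, was at 3.16, 3.44 and 2.94 FPKM in Control and at 1.25, 1.60 and 1.12 FPKM in GOF libraries. Fabp4, a fatty acid binding protein that Pparg activates, was at 8.88, 7.71 and 7.17 FPKM in Control and at 2.02, 3.08 and 1.77 FPKM in GOF libraries. Sfrp4, a secreted Wnt antagonist, had a log2 fold change of -2.68, and Col14a1, a collagen that binds to fibrils, one of -2.28. Adjusted p for these 4 genes were at most 0.0173 (edgeR). The 2 genes called higher were Tgm2, a crosslinking enzyme (log2 fold change 1.55), and Cnn1, a smooth muscle calponin (1.25). Ccn5 and Plac8, named after their values were seen, overlapped between groups and were highest in Control replicate 0 and GOF replicate 2 of their groups, as Ly6a and Cd34 were.

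Of 13 tested general fibroblast genes, 3 were called lower, against 5.64% of all tested genes, and 10 were not called, with a median log2 fold change of -0.69. Those called were the proteoglycan Dcn (-1.67), fibronectin Fn1 (-1.33) and the collagen chain Col1a2 (-1.18), with adjusted p of 0.00584 to 0.0375 from edgeR. Without GOF replicate 1 the count was 1. The platelet-derived growth factor receptors Pdgfra and Pdgfrb did not pass, with edgeR's adjusted p at 0.252 and 0.117. Col3a1 and Postn were not tested, since Cuffdiff marked both as holding too many fragments in the Control libraries and listed them there at 0.

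Of 10 tested genes of the dermal papilla, the fibroblast cluster at the base of the hair follicle, 3 were called higher and 5 lower, against 6.69% and 5.64% of all tested genes, with a median log2 fold change of -0.89. Hhip, a Hedgehog inhibitor (log2 fold change 5.67), Notum, an enzyme that inactivates Wnt proteins (4.35), and Prom1 (1.99) were higher. None of these 3 reached the filter on low counts in every Control library, and Alpl reached it in no GOF library, so that they entered the test through the group in which they were high. The other 4 called genes, all lower, reached it in all 6 libraries. Rspo3, a Wnt signal enhancer, fell from 8.48, 9.56 and 7.30 FPKM to 0.625, 1.14 and 0.785 FPKM, and the growth factor Fgf7 from 87.5, 96.4 and 121 FPKM to 29.5, 32.5 and 18.1 FPKM. The proteoglycan Vcan (-1.26), alkaline phosphatase Alpl (-2.29) and, named after its values were seen, the growth factor Fgf10 (-1.60) were the other genes called lower, and the count was 3 without Control replicate 1. With a minimum FPKM of 1 in 3 libraries, 1 of 5 tested dermal papilla genes was called higher, where 639 of all 12228 tested genes were. Of 11 tested fascial genes, which mark the cells that also carry Pi16, 3 were called higher and 2 lower, against 6.69% and 5.64% of all tested genes, with a median of 0.59. The Wnt ligand Wnt2 (log2 fold change 3.17), the protein C receptor Procr (1.57) and Efhd1 (3.80) were higher, and Ly6c1 (-1.56) and the matrix protein Emilin2 (-1.67) lower. Efhd1, with 6, 10 and 9 fragments in Control and 119, 62 and 185 in GOF libraries, entered the test through the GOF libraries alone. The count of lower genes was 1 without GOF replicate 0 and 1 without GOF replicate 1.

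**Figure D4:**
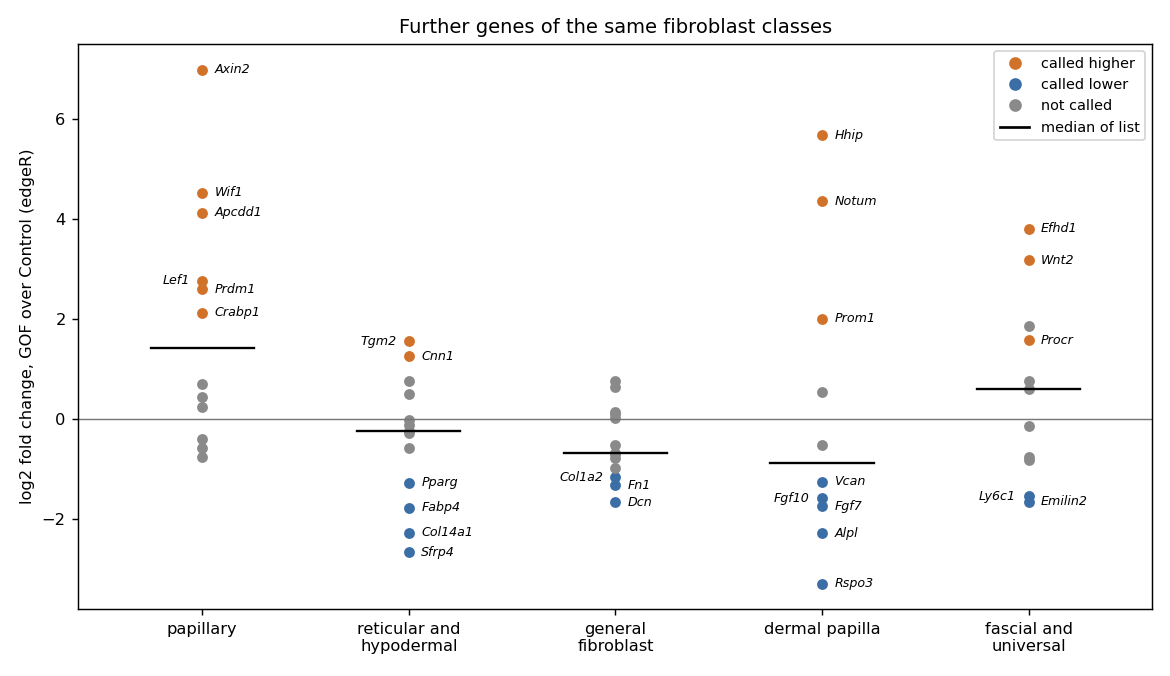
Log2 fold change of GOF over Control (edgeR) of the tested genes in 5 further lists, with called genes named and the median of each list as a line. The papillary list has its median at 1.40 and 6 genes called higher. Of these 6, 3 did not reach the filter on low counts in every Control library, so count and median describe the genes that passed. The general list holds 3 called genes, all lower. Of all tested genes, 6.69% were called higher and 5.64% lower.

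Genes whose pattern over the 6 libraries was most like that of a called marker were sought among the 12018 that averaged 1 FPKM or more, by Pearson's r of log2 CPM. Nearest to Dpp4 were Prkd1 (r = 0.9996) and Inhbb (r = 0.9993), nearest to Pi16 were Ghr (r = 0.9982) and Adam23 (r = 0.9981), and nearest to Cd34 were Gas5 (r = 0.9978) and Scrn2 (r = 0.9974). With 6 libraries in 2 groups such values are common: 559 genes had r over 0.95 with Dpp4, 512 with Pi16 and 284 with Cd34.

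**Figure D5:**
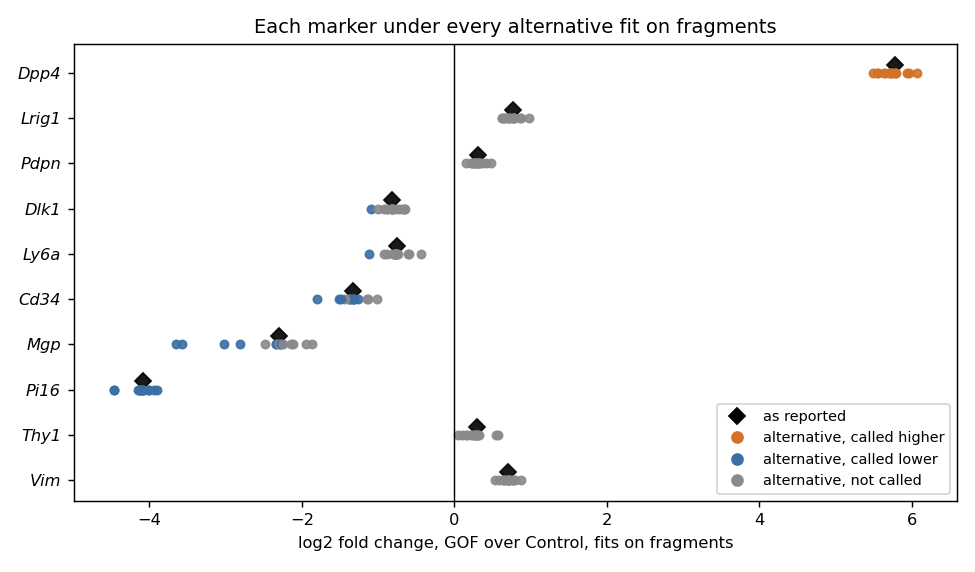
Log2 fold change of each marker in the reported fit (diamonds) and in the alternative fits on fragments (circles, coloured where the marker was called). Each marker keeps its sign, Dpp4 and Pi16 are called throughout, and the fits for Mgp spread from -3.65 to -1.87.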

How the data were processed

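RNA-seq was performed on 3 Control and 3 GOF cultures of mouse dermal fibroblasts. The authors used TopHat on stranded paired-end reads, with mm10 as the genome, followed by Cuffdiff. Tool versions are not given in the sources used here. The deposited estimated counts are unscaled Cuffdiff fragments per gene, and 4.95% of them were not whole. The FPKM values were deposited after scaling between libraries and by transcript length. The status flag, another deposited column, served to leave out 32 genes whose estimate failed in a library. A further 3 columns of the table, and the lncRNA table, were not used. Whether the authors' counting used the strand is not given, so overlapping genes on opposite strands are named where a marker has one.

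GENCODE M21, whose GRCm38 coordinates are those of mm10, gave names to 97.9% of the 41126 genes. Fragments were rounded and tested with edgeR 4.0.16 under R 4.3.3. Libraries were scaled by TMM factors, low genes removed by filterByExpr, and the quasi-likelihood p adjusted by Benjamini-Hochberg over all tested genes, with thresholds of 0.05 for this p and 2 for the fold change. CPM were taken after TMM scaling. Nothing but the separate mice says that the cultures are biological replicates, and 2 mice appear in both groups. Cultures of one mouse deviated together from their group means (r = 0.408 and 0.460 across 15462 genes), whereas those that share only a label number did not (r = -0.410, 0.0539 and -0.441). No 2 libraries of a group agreed within sampling noise, with a chi-square per degree of freedom of 24.3 or more. On simulated counts for this comparison, edgeR called 173 of 200 genes changed by 2 on the log2 scale and 8 unchanged genes among 15252 tested. The simulated libraries were independent, so this does not give the error rate for cultures that share a mouse. The alternatives were DESeq2 1.42.0, limma 3.58.1 on log2(FPKM + 1) and log2(FPKM + 0.1), limma-voom with cultures of one mouse correlated, library totals, upper-quartile factors, 2 other filters on low counts, omission of single libraries, and a replicate block either by animal or by the number in the label. By rule, the named genes are the 10 markers, the called genes of each further list with the smallest adjusted p (up to 4 in each direction), list genes whose estimate failed, Axin2, Ctnnb1, and the 2 genes most like each called marker. Other list genes, among them Krt5, Krt10, Cd4, Col1a1, Lyve1, Ly6e, Pdgfra and Pdgfrb, were named outside this rule, which did not fix their choice. Ctnnb1, counted over the whole gene, averaged 263 FPKM in GOF and 267 FPKM in Control libraries (adjusted p = 0.844), which does not check the loss of its exon 3. The markers and lists were chosen with earlier results of these data known. Each list is described by counts and medians, without a set test.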

Additional observations from a re-analysis of the deposited data

How the results depend on the processing

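Every marker kept the sign of its log2 fold change in all alternatives that could be fitted. Dpp4 was the 1 marker called higher in each of them. The count of markers called lower, 2 in the reported fit, was 1 with a minimum FPKM of 1 in 3 libraries, which removed Pi16 from the test, and 1 with limma on log2(FPKM + 1), where Mgp was called but Cd34 and Pi16 fell under the fold threshold. A replicate block by animal, with 1 residual degree of freedom, gave 3, and omitting single libraries gave 1 to 3 (1 without Control replicate 1 and 1 without GOF replicate 0). The replicate block by label number, which no label ties to a shared mouse, called 1421 genes in all and kept the count of 2, with Mgp (adjusted p = 0.0208, against 5.28e-04 to 0.120 over its alternatives) in place of Cd34 (adjusted p = 0.0920, against 0.00270 to 0.147). The count of all genes called, 1906 in the reported fit, was 877 with limma on log2(FPKM + 1) and 1311 to 1961 on omitting single libraries. Library totals and upper-quartile factors moved the median of all genes by less than 0.1 on the log2 scale. The fewest fragments stand behind Pi16 in GOF libraries and Dlk1.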
